A study of Mus musculus with 2 samples.

Results

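Transcript levels of 10 BCL-2 family survival and death genes were compared between Th17 cells made with a Cre-carrying and with a control retrovirus. The members were *Bcl2*, *Bcl2l1*, *Mcl1*, *Bcl2a1d*, *Bak1*, *Bcl2l11*, *Bad*, *Bid*, *Bik* and *Bmf*, chosen as family genes outside the classical targets of p53 and found by their symbol. They made up 10 of the 23282 gene rows of the count tables. The study asked what focal adhesion kinase (FAK, encoded by *Ptk2*), an integrin-associated tyrosine kinase, does in Th17 cells, the CD4 T cells that secrete IL-17. Naïve CD4 T cells came from the spleens of *Fak* fl/fl mice, which the study's methods describe as female and 6 to 8 weeks old, and were activated for 20 to 24 h before transduction with immobilized antibody to CD3ε at 10 μg/ml and antibody to CD28 in solution at 5 μg/ml. They then received either a control retrovirus or a retrovirus coding for Cre and GFP (RV-Cre). Both were then polarized for 3 days with IL-6 (50 ng/ml), TGFβ1 (1 ng/ml), TNF (1 ng/ml), IL-1β (2 ng/ml), anti-IFNγ (5 μg/ml) and anti-IL-4 (5 μg/ml) and sorted for GFP. Each condition had 1 library and no replicate, so no p-value was computed, and every difference below is one between these 2 libraries. Both groups carried the floxed allele, were activated and were transduced, whereas Cre and the loss of FAK came together, so that an effect of Cre itself cannot be told apart from that of the deletion. The control library carries WT as its genotype label but *Fak* fl/fl cells and a control retrovirus in its title, and was taken by the title.

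BCL-2 family proteins set the threshold at which the outer mitochondrial membrane is opened and cytochrome c escapes to start the caspase cascade. Pro-survival proteins such as BCL-2, BCL-XL, MCL-1 and A1 hold the pore-forming effectors BAK and BAX in check. BH3-only proteins such as BIM, BAD, BID, BIK and BMF bind into a groove of the pro-survival proteins, and some of them also activate the effectors directly. In T cells, naïve and memory cells depend on BCL-2, activated cells switch on BCL-XL and A1, MCL-1 is needed at most stages, and BIM is the main BH3-only protein that removes activated cells once antigen and cytokine are gone.

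What ties the 3 roles together is the BH3 segment, the short helix through which BH3-only proteins bind their partners, so the bases coding for its core are shown for the members where they were found. The core pattern searched was a leucine, any 3 residues, then glycine, alanine or serine, then aspartate, in the translation of the longest coding transcript of each gene in GENCODE M21 (mm10). It occurred once in 9 of the 10 genes and not in *Bcl2a1d*, which says only that these letters were not in that reading frame. The 9 codons from the leucine onward are given 5′ to 3′ on the coding strand, with the leucine codon and the codons for the pair ending in aspartate in capitals.
Bcl2: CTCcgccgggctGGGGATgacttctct
Bcl2l1: CTGagagaggcaGGCGATgagtttgaa
Mcl1: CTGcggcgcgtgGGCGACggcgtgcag
Bak1: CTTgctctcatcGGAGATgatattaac
Bcl2l11: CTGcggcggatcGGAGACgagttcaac
Bad: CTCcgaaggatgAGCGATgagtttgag
Bid: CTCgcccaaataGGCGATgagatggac
Bik: CTGgcctgcatcGGCGATgagatggac
Bmf: CTTcagtgtattGCAGACcagttccat
In mm10 these coding exon segments lie on the plus strand at chr3:95659436-95659462 (*Mcl1*), chr2:128147150-128147176 (*Bcl2l11*), chr19:6950792-6950818 (*Bad*) and chr15:83543084-83543110 (*Bik*). On the minus strand they lie at chr1:106712575-106712601 (*Bcl2*), chr2:152829697-152829723 (*Bcl2l1*), chr17:27022531-27022557 (*Bak1*), chr6:120897289-120897315 (*Bid*) and chr2:118545100-118545126 (*Bmf*). The closest pair was *Bid* and *Bik*, with 22 of 27 bases and 8 of 9 residues in common. *Bcl2* shared 16 of 27 bases and 6 of 9 residues with *Bcl2l11*, whose protein BIM binds it. The library kit samples the 3′ ends of transcripts and the count tables hold no read positions, so the segments show only how alike these core codons are between members.

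The control and RV-Cre libraries held 13799264 and 12305010 counted reads. The targeted gene *Ptk2* had 110 control and 31 RV-Cre reads, and its ratio after scaling was 0.318 (95% counting interval 0.206 to 0.477), and reads from the 3′ end may lie outside the floxed part. Of the marker lists, the summed level of 7 T cell genes was 1423 CPM (counted reads scaled to a fixed library total) in the control and 2076 CPM in the RV-Cre library, higher for 7 of 7 genes. Of these genes only *Cd3d* (ratio 2.30) and *Cd3e* (2.24) passed 2-fold. *Cd4* was level, at 108 and 109 CPM, with a ratio of 1.02 (0.944 to 1.10). The Th17 cytokine gene *Il17a* had 424 and 103 reads. Markers of other cells were also higher in sum in the RV-Cre library. The 6 B cell genes summed to 4.78 and 11.8 CPM (4 of 6 higher, *Pax5* at 0 in both), the 8 myeloid genes to 11.2 and 40.4 CPM (5 of 8 higher, *Adgre1* at 0 in the control), the 6 CD8 T and NK cell genes to 86.1 and 125 CPM (4 of 6 higher, *Ncr1* at 0 in the control and *Klrb1c* in the RV-Cre library) and the 6 stromal and erythroid genes to 17.4 and 71.1 CPM (6 of 6 higher, *Col1a2* at 0 in the control). *Pecam1* alone made up most of the stromal and erythroid sum, with 14.1 CPM in the control and 50.4 CPM in the RV-Cre library. In that list the counting intervals of *Col1a2* (0 and 3 reads) and *Pdgfra* (2 and 5 reads) held a ratio of 1. Within the myeloid list, *Marco* (5 and 289 reads) and *Csf1r* (16 and 110) were higher in the RV-Cre library. The other 6 genes summed to 133 and 98 reads, with fewer RV-Cre reads for *Lyz2* (22 and 7) and *Itgax* (27 and 1). In the CD8 T and NK cell list, *Cd8a* (322 and 580 reads), *Cd8b1* (122 and 274) and *Nkg7* (492 and 615) were higher in the RV-Cre library. In the same list *Klrd1* went the other way from the sum, with 240 and 57 reads, as did *Klrb1c*, with 12 and 0. The study's methods isolated naïve CD4 T cells with a kit before culture, and what other cells remained after that step was not measured here. The part of such cells in the member results was not tested, and in bulk RNA fewer cells of a type and less RNA per cell cannot be told apart.

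Of the pro-survival genes, *Bcl2* was more than 2-fold higher in the RV-Cre library. The other pro-survival genes stayed under 2-fold, with log2 ratios of 0.62 for *Mcl1*, -0.45 for *Bcl2l1* and -0.51 for *Bcl2a1d*. Among the death genes, which all stayed under 2-fold, *Bcl2l11* came nearest with a log2 ratio of 0.93, followed by *Bid* at -0.83, *Bad* at 0.34 and *Bak1* at 0.24, and the counts of *Bik* and *Bmf* were too low to show a direction. A row counted as called when it differed at least 2-fold on log2(normalized count + 1) and reached a log2 value of 4, that is 15 normalized reads, in at least 1 library. All 10 members passed this minimum, 1 was called higher and 0 were called lower, against 14.2% of 12112 rows called higher and 12.3% called lower. The median log2 ratio was 0.02 over the members and -0.01 over all rows. The 95% counting interval of the ratio lay above 1 for 5 members and below 1 for 3, where the same held for 36.7% and 38.1% of all rows, so that an interval that leaves out 1 was common at this depth. These intervals cover counting error only, since the reads carry no molecular identifiers and copies of one molecule are counted separately.

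**Figure D1:**
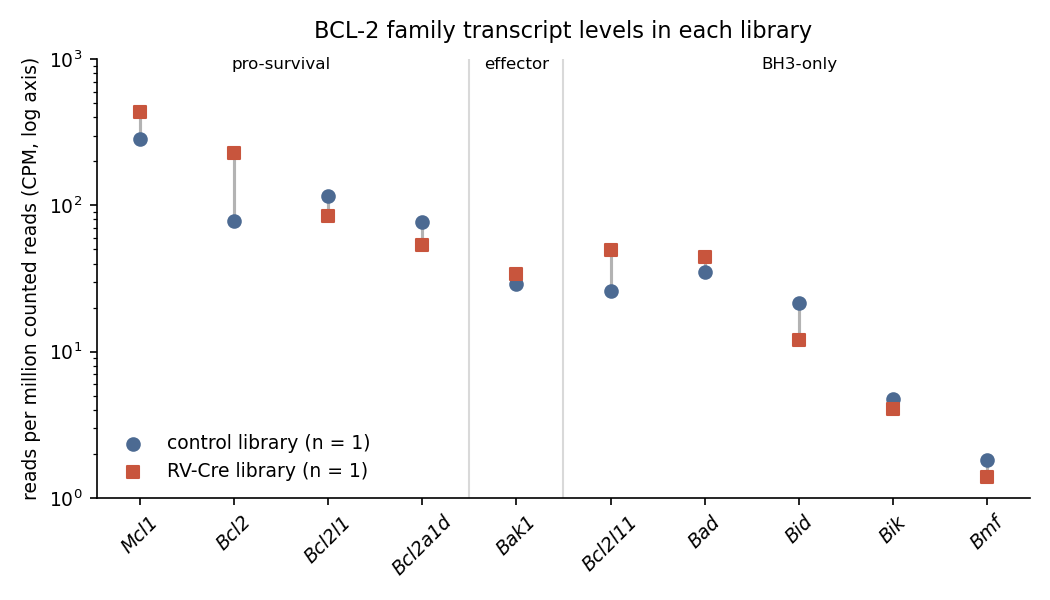
Level of each member in CPM (log axis) in the control library (circles) and the RV-Cre library (squares), 1 library each, grouped by role and joined by a grey line. Levels run from 1.38 CPM for *Bmf* in the RV-Cre library to 438 CPM for *Mcl1* in the same library, and the widest gap is that of *Bcl2*, from 78.3 to 229 CPM.

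Among the pro-survival genes, *Bcl2* (chr1:106538178-106714274, minus strand), which encodes the founding member of the family, had 1081 reads (78.3 CPM) in the control and 2814 reads (229 CPM) in the RV-Cre library. It was the member called higher, with a ratio after scaling of 2.94 (95% counting interval 2.74 to 3.15), or 1.55 as log2. Of all rows past the minimum, 8.53% had a log2 ratio at least as high. Among the 2473 rows as abundant as *Bcl2* (mean log2 count from 10 upward), 3.28% reached 2-fold higher, and among the 2978 rows below 6 the share was 40.8%. The annotated last exon of *Bcl2* is overlapped on the other strand by *D630008O14Rik*. Read positions are not known and no source says that reads were counted by strand, so reads of *D630008O14Rik* could have been included. *Gm37053* and *Mir3473f* lie within the locus on the same strand.

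*Mcl1* (chr3:95658788-95663176, plus strand), whose short-lived protein restrains BAK, was the most abundant member in both libraries. Its counts were 3947 reads (286 CPM) in the control and 5385 reads (438 CPM) in the RV-Cre library, and its ratio was 1.54 (1.48 to 1.60), a log2 ratio of 0.62. The RV-Cre level was therefore higher beyond counting error but under the 2-fold threshold.

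*Bcl2l1* (chr2:152780668-152831728, minus strand), the gene of BCL-XL, which is switched on by T cell activation, had 1609 reads (117 CPM) in the control and 1040 reads (84.5 CPM) in the RV-Cre library. Its ratio was 0.729 (0.674 to 0.789) and its log2 ratio -0.45, lower beyond counting error and under the threshold.

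*Bcl2a1d* (chr9:88723285-88731914, minus strand) is one of the mouse copies of the gene for A1, an NF-κB-responsive protein of activated lymphocytes. It had 1059 reads (76.7 CPM) in the control and 660 reads (53.6 CPM) in the RV-Cre library, and its ratio was 0.703 (0.637 to 0.776), a log2 ratio of -0.51. This value is uncertain, because the counting could split reads among near-identical copies, and *Gm10634* overlaps the locus on the other strand. In GENCODE M21 the last 300 bases of the *Bcl2a1a* transcript matched those of *Bcl2a1d* at 298 of 300 positions, and those of *Bcl2a1b* at 296 of 298 aligned positions. *Bcl2a1a* had 457 and 284 reads (log2 ratio -0.51), *Bcl2a1b* 1077 and 426 reads (log2 ratio -1.16) and *Bcl2a1c* 2 and 0 reads. All 3 copies with more than 2 reads were lower in the RV-Cre library, and the 4 copies summed to 2595 and 1370 reads, a ratio of 0.596 (0.558 to 0.636).

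The effector *Bak1* (chr17:27019810-27029009, minus strand), whose protein forms the pore in the mitochondrial membrane, had 401 reads (29.1 CPM) in the control and 419 reads (34.1 CPM) in the RV-Cre library. The ratio of 1.18 (1.03 to 1.36) was barely beyond counting error, and 37.7% of all rows had a log2 ratio at least as high. Its locus is overlapped by *Ggnbp1* on the other strand.

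Among the BH3-only genes, *Bcl2l11* (chr2:128126038-128162547, plus strand), which encodes BIM, had the largest ratio. Its counts were 358 reads (25.9 CPM) in the control and 607 reads (49.3 CPM) in the RV-Cre library, and their ratio was 1.91 (1.68 to 2.19), a log2 ratio of 0.93. The interval reached past 2-fold while the value stayed under it, and 15.3% of all rows had a log2 ratio at least as high. *Bcl2l11* was thus the member just outside the threshold.

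*Bad* (chr19:6941861-6951899, plus strand), whose protein is held by 14-3-3 proteins when growth factor kinases are active, had 484 reads (35.1 CPM) and 545 reads (44.3 CPM). Its ratio was 1.27 (1.12 to 1.44), and *Gpr137* overlaps the locus on the other strand.

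*Bid* (chr6:120891930-120916853, minus strand), which links caspase-8 to mitochondria, had 297 reads (21.5 CPM) in the control and 148 reads (12.0 CPM) in the RV-Cre library. Its ratio of 0.562 (0.459 to 0.687), a log2 ratio of -0.83, was the lowest of the 10, and 84.1% of all rows had a log2 ratio at least as high. The *Bid* locus is overlapped by *Gm44260* on the same strand and by *Gm17812* and *Bcl2l13* on the other, which leaves the assignment of reads there uncertain. *Bcl2l13* had 402 and 418 reads (log2 ratio 0.23).

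*Bik* (chr15:83526862-83544634, plus strand), whose protein sits at the endoplasmic reticulum, had 65 reads (4.71 CPM) and 50 reads (4.06 CPM), and *Gm46495* overlaps it on the other strand. *Bmf* (chr2:118528757-118549687, minus strand), whose protein is bound by dynein light chains, had 25 reads (1.81 CPM) and 17 reads (1.38 CPM). The intervals of both ratios held 1, at 0.588 to 1.27 around 0.868 for *Bik* and 0.389 to 1.48 around 0.767 for *Bmf*, so that a difference was not detectable at this depth.

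**Figure D2:**
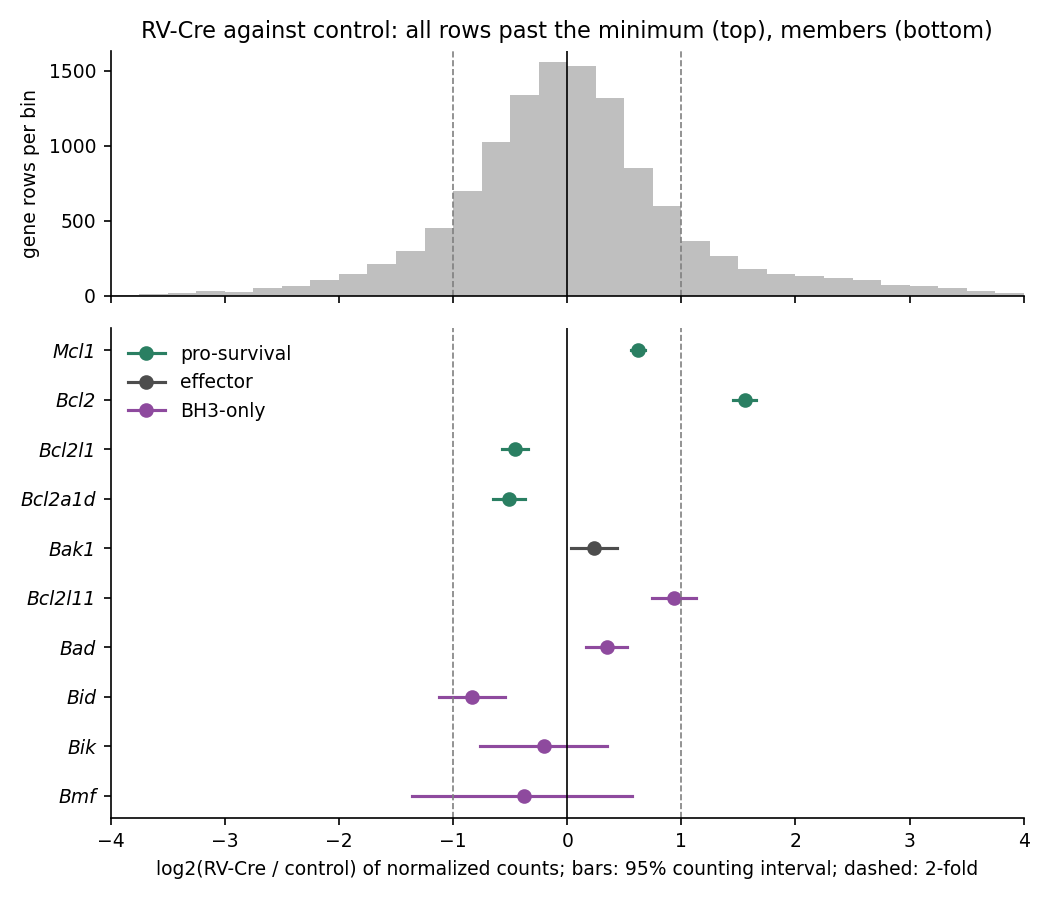
Top, number of gene rows past the expression minimum in each bin of the log2 ratio of RV-Cre against control; bottom, log2 ratio of each member (points, coloured by role) with its 95% counting interval (bars), and dashed lines at 2-fold. *Bcl2* at a ratio of 2.94 is the member beyond the right line, *Bcl2l11* at 1.91 lies just inside it, and the intervals of *Bik* and *Bmf* cross 0.

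The order of the members could be read within each library, since the 3′ kit primes at the poly(A) tail and yields counts that do not grow with transcript length, so no division by length was made. In the control library the reads ran from *Mcl1* through *Bcl2l1*, *Bcl2*, *Bcl2a1d*, *Bad*, *Bak1*, *Bcl2l11*, *Bid* and *Bik* to *Bmf*. Neighbours in this order differed beyond counting error except *Bcl2* and *Bcl2a1d* (ratio of reads 1.02, interval 0.937 to 1.11) and *Bak1* and *Bcl2l11* (1.12, 0.969 to 1.30). In the RV-Cre library the order was *Mcl1*, *Bcl2*, *Bcl2l1*, *Bcl2a1d*, *Bcl2l11*, *Bad*, *Bak1*, *Bid*, *Bik* and *Bmf*. Here *Bcl2a1d* and *Bcl2l11* (1.09, 0.972 to 1.22) and *Bcl2l11* and *Bad* (1.11, 0.990 to 1.25) did not differ beyond counting error. *Bcl2* thus went from rank 3, level with *Bcl2a1d*, to rank 2, and *Bcl2l11* from rank 7 to rank 5, whereas *Mcl1* stayed first and *Bid*, *Bik* and *Bmf* stayed last. These ranks use the *Bcl2a1d* row alone. The 4 copies summed, at 2595 and 1370 reads, exceeded *Bcl2l1* in both libraries and *Bcl2* in the control.

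The make-up of the family's own reads needs no scaling between the libraries. The 10 members had 9326 reads in the control and 11685 in the RV-Cre library. *Bcl2* took 11.6% of them (exact binomial 95% interval 10.9 to 12.3%) in the control and 24.1% (23.3 to 24.9%) in the RV-Cre library, while *Bcl2l1* went from 17.3% to 8.90% and *Bcl2a1d* from 11.4% to 5.65%. *Mcl1* held the largest share in both, 42.3% and 46.1%. The pro-survival genes together took 82.5% (81.7 to 83.3%) in the control and 84.7% (84.1 to 85.4%) in the RV-Cre library, and the BH3-only genes 13.2% (12.5 to 13.9%) and 11.7% (11.1 to 12.3%). The pro-survival share was thus 2.19 percentage points higher in the RV-Cre library, while the share of *Bcl2* alone was 12.5 points higher. With the reads of the other *Bcl2a1* copies added, the pro-survival share was 85.0% (84.3 to 85.7%) in the control and 85.6% (85.0 to 86.2%) in the RV-Cre library, and the BH3-only share 11.3% (10.7 to 11.9%) and 11.0% (10.5 to 11.6%). These intervals overlap, so the difference between the roles, beyond counting error over the 10 members, was lost with the copies.

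**Figure D3:**
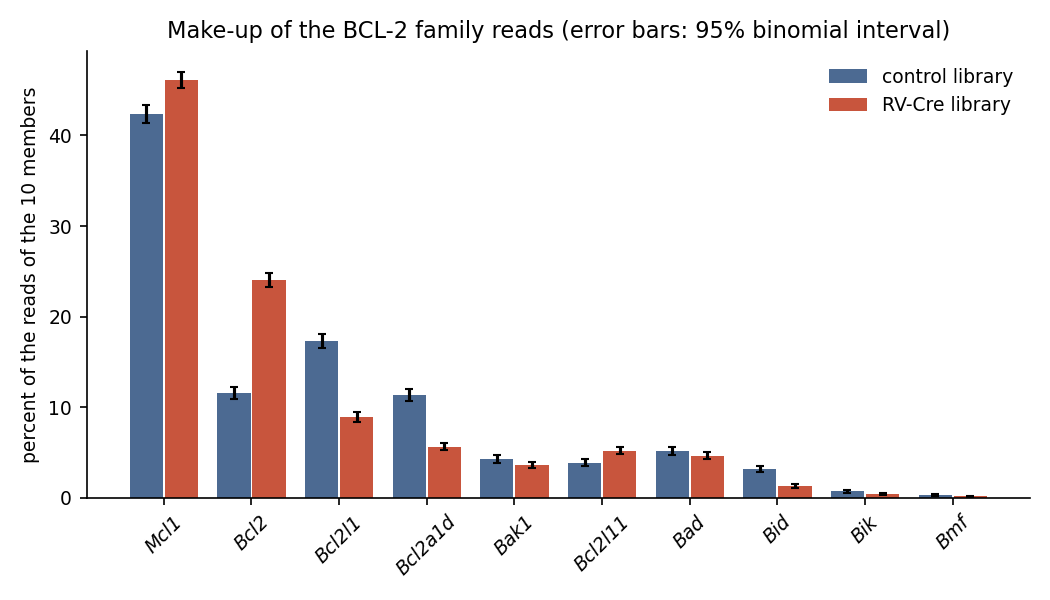
Share of the summed reads of the 10 members taken by each gene, in percent, in the control library (blue) and the RV-Cre library (red), with exact binomial 95% intervals as error bars. The share of *Bcl2* was 11.6% in the control and 24.1% in the RV-Cre library, and those of *Bcl2l1* (17.3% and 8.90%) and *Bcl2a1d* (11.4% and 5.65%) went the other way.

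Within the pro-survival reads, *Bcl2* made up 14.0% in the control and 28.4% in the RV-Cre library, and *Bcl2l1* 20.9% and 10.5%. Within the BH3-only reads, *Bcl2l11* made up 29.1% and 44.4%, *Bid* 24.2% and 10.8%, and *Bad* 39.4% and 39.9%. In the RV-Cre library *Bcl2l11* and *Bad* did not differ beyond counting error. After scaling, the summed pro-survival counts were 1.45-fold higher in the RV-Cre library (1.41 to 1.5) and the summed BH3-only counts 1.26-fold higher (1.16 to 1.36).

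Ratios between members whose proteins bind each other, or stand in for each other in T cells, were compared for 8 pairs, again without scaling. *Bcl2l1* had 1.49 reads for each read of *Bcl2* in the control and 0.370 in the RV-Cre library, so that the balance of these pro-survival genes moved 4.03-fold (3.62 to 4.48) toward *Bcl2*. *Mcl1* had 3.65 and 1.91 reads for each read of *Bcl2*. The balance of *Bcl2l11* depended on the partner it was set against. Its reads for each read of *Bcl2* were 0.331 in the control and 0.216 in the RV-Cre library, a change of 0.651 (0.560 to 0.758). Against *Mcl1* they were 0.0907 and 0.113, a change of 1.24 (1.08 to 1.43), and against *Bcl2l1* 0.222 and 0.584, a change of 2.62 (2.25 to 3.06). Reads of *Bcl2l11* were therefore fewer for each *Bcl2* read and more for each *Bcl2l1* read in the RV-Cre library. Any reads of *D630008O14Rik* counted for *Bcl2* would enter the ratios with *Bcl2*, and its rank and share, as well. Of the other pairs, *Bad* had 0.301 and 0.524 reads for each read of *Bcl2l1* (change 1.74, 1.5 to 2.02), *Bid* 0.741 and 0.353 for each read of *Bak1* (0.477, 0.372 to 0.610), and *Bmf* 0.0231 and 0.00604 for each read of *Bcl2* (0.261, 0.132 to 0.506). Of the 8 pairs, 4 share *Bcl2*, and single rows commonly left out 1 as well, so the exclusion of 1 is not particular to these pairs.

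The member ratios depended on how the libraries were scaled, though little between the main scaling, library totals and DESeq2 size factors. With library totals *Bcl2* was at 1.54 and *Bcl2l11* at 0.93, and with DESeq2 size factors at 1.54 and 0.92. A ribosomal RNA row, *Rn45s*, took 8.50% of the control reads and 14.6% of the RV-Cre reads. With library totals taken without it, the log2 ratio of *Bcl2l11* was 1.02 and 2 members were called higher, *Bcl2* and *Bcl2l11*, where 16.0% of all rows were. With *Gapdh* as the reference, which itself had 956 and 634 reads, the median of all rows was shifted to 0.43, *Mcl1* reached a log2 ratio of 1.04 and *Bcl2l1* came to -0.037. The signs of *Bik* and *Bmf* turned under this scaling, to 0.21 and 0.03. Under quantile normalization the other 8 members had higher log2 ratios than with the main scaling, whereas *Bik* came to -0.27 and *Bmf* to -0.83.

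**Figure D4:**
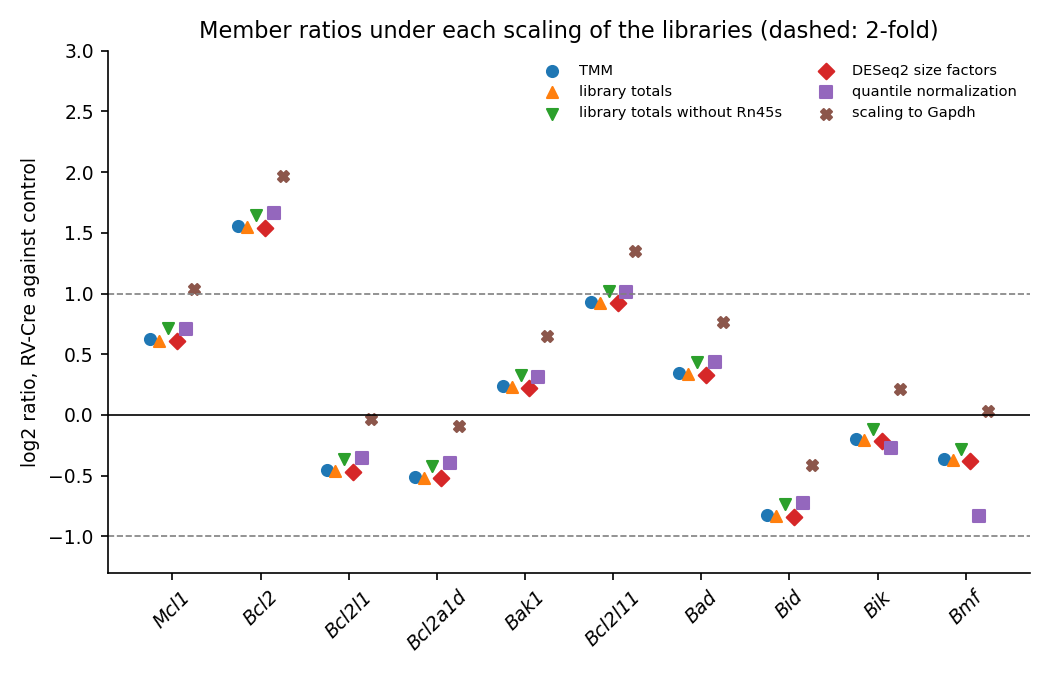
Log2 ratio of RV-Cre against control for each member (horizontal axis) under 6 ways of scaling the libraries (symbols), with dashed lines at 2-fold. *Bcl2* lies above the upper line under all 6, from 1.54 to 1.97, *Bcl2l11* crosses it under 3, and *Bcl2l1*, *Bcl2a1d* and *Bid* lie below 0 under all 6.

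The 16 other BCL-2 family genes listed from textbook roles had 11 past the minimum, of which 1 was called higher (9.09%, against 14.2% of all rows) and 3 were called lower (27.3%, against 12.3%), with a median log2 ratio of -0.29. *Bcl2l2*, the gene of the pro-survival protein BCL-W, had 51 reads in the control and 14 in the RV-Cre library (log2 ratio -1.63), and it was called lower, as was *Bcl2a1b*. *Bcl2l2* passed the minimum through the control library alone, and with a log2 minimum of 4 in both libraries, or of 6 in at least 1, its call was lost and 2 genes of the list were called lower. *Pmaip1*, which encodes NOXA, a BH3-only partner of MCL-1, was called lower too, with 117 and 36 reads (log2 ratio -1.50). The gene called higher was *Bcl2l15*, with 16 and 74 reads and a ratio of 5.22 (3.01 to 9.60). *Bcl2l2*, *Bcl2a1b* and *Bcl2l15* each overlap another annotated gene on the same strand, which leaves the assignment of their reads uncertain. The effector *Bax* stayed under the threshold like *Bak1*, with 228 and 274 reads (log2 ratio 0.44), and so did *Bbc3*, the gene of the BH3-only protein PUMA, with 193 and 217 reads (0.34). *Bnip3l*, a mitophagy receptor, had 1520 and 1394 reads (0.05), *Bnip3* 166 and 103 (-0.51) and *Bcl2l12* 116 and 84 (-0.29). *Bok*, with 1 and 0 reads, *Bcl2l14*, with 4 and 1, and *Hrk* and *Bcl2l10*, with none in either library, were too low to compare.

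Downstream of the mitochondria, 11 of 11 genes of the apoptosome and the caspases passed the minimum and 0 were called in either direction, against 14.2% of all rows called higher and 12.3% called lower, with a median of -0.05. *Cycs*, the gene of cytochrome c, had the most reads, 2366 and 1912 (log2 ratio -0.13). The values nearest the threshold, picked out after they were seen, were those of *Casp9*, the initiator caspase of the apoptosome, with 62 and 108 reads (0.96), and *Htra2*, a mitochondrial protease, with 644 and 289 reads (-0.98). Of 5 inhibitors of apoptosis, 0 were called higher and 2 lower, or 40.0% against 12.3% of all rows. *Birc5*, the gene of survivin, which acts mainly in mitosis, had 3121 and 587 reads (-2.23), and *Birc3*, the gene of cIAP2, a target of NF-κB, 957 and 310 reads (-1.45). The median of that list was 0.0032, the value of *Birc6*. In the death receptor branch, 9 of 10 genes passed the minimum, 0 were called higher and 1 was called lower, or 11.1% against 12.3% of all rows, with a median of -0.08. That gene was *Tnfrsf10b*, the receptor for TRAIL, with 454 and 89 reads (-2.16), while *Cflar*, the gene of the caspase-8 inhibitor cFLIP, had the most reads, 1510 and 1850 (0.47).

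The list of regulators of BIM, BMF, BAD and MCL-1 held 16 genes, of which 15 passed the minimum and 0 were called, against 14.2% of all rows called higher and 12.3% called lower, with a median of -0.09. The gene that did not pass was *Foxo3*, with 7 reads in the control and 0 in the RV-Cre library. *Ywhae*, one of the 14-3-3 genes, had the most reads, 12865 and 7015 (log2 ratio -0.70). Picked out after their values were seen, *Foxo1*, a transcription factor that can induce *Bcl2l11*, had 3498 and 4142 reads (0.42), *Pim1*, a kinase that phosphorylates BAD, 3511 and 5854 reads (0.91), and *Akt1*, another such kinase, 3874 and 1880 reads (-0.87). Over the 6 lists, 59 of 66 genes passed the minimum, 1 was called higher (1.69%, against 14.2% of all rows) and 6 were called lower (10.2%, against 12.3%), at a median of -0.06. The share of rows called higher was carried in part by low rows. With a log2 minimum of 4 in both libraries it was 7.19%, and with a minimum of 6 in at least 1 library 7.58%, while 1 member and 1 list gene were called higher under either.

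**Figure D5:**
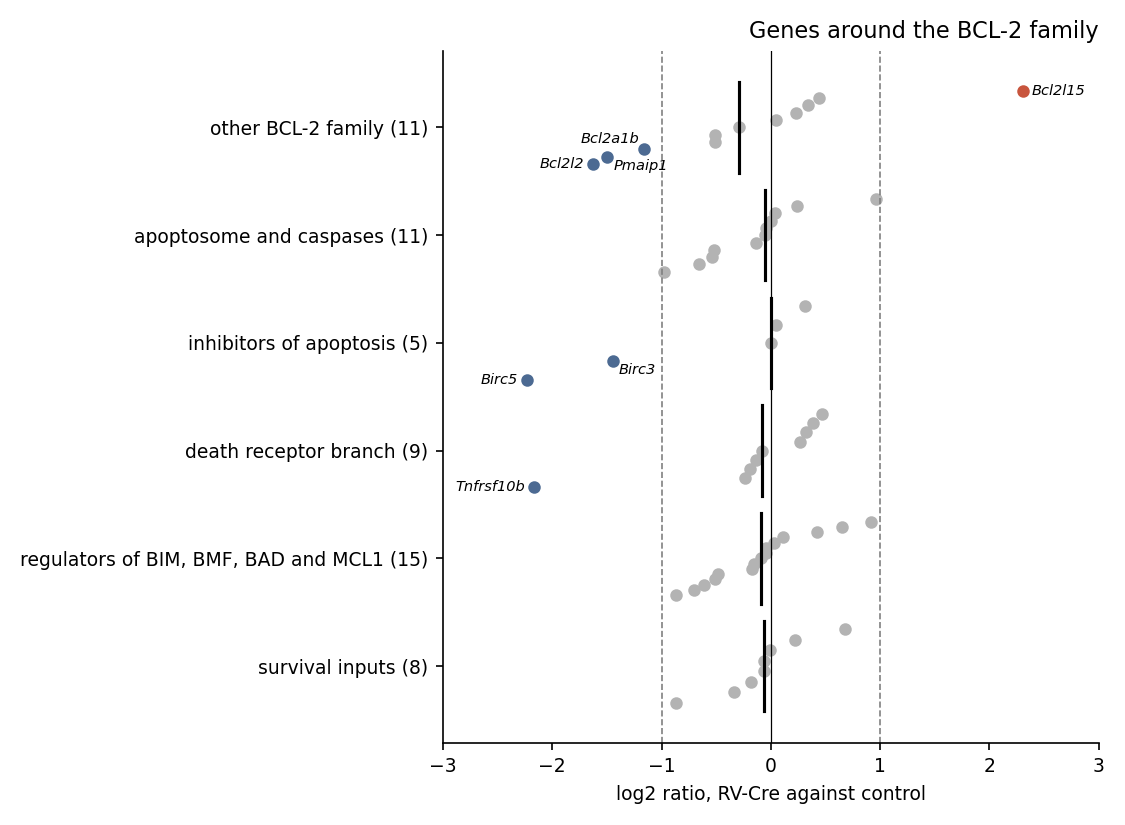
Log2 ratio of RV-Cre against control for each gene past the minimum in 6 lists around the BCL-2 family (number of genes in brackets), with the list median as a black bar, dashed lines at 2-fold, genes called higher in red and genes called lower in blue. Of the 59 genes, *Bcl2l15* lies beyond the right line and 6 genes, among them *Birc5* at -2.23, beyond the left.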

How the data were processed

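RNA from GFP-sorted Th17 cells (500 ng) was made by the authors into 1 QuantSeq 3′ library per condition. Raw counts of reads for each gene symbol, not normalized, were deposited. The submitters' processing notes name bcl2fastq 2.20.0.422, Bowtie2, bedtools and mm10, and neither the counting rule nor its use of strand is given in the sources used here. The tables list 23282 rows, of which 79 share a symbol with another row. Members and gene lists were chosen with earlier results of these data known. The rule named all members, other family genes with reads, called genes and the gene with most reads of each list, *Ptk2*, *Rn45s* and *Gapdh*; further genes, among them those without reads, overlapping genes and single cell type markers, were named after their values were seen. Counts were scaled with TMM factors (edgeR 4.0.16, R 4.3.3; size factors 1.06 and 0.941) and compared as log2(normalized count + 1). The split of a gene's reads between libraries gave each ratio an exact 95% interval (Clopper-Pearson), and pair ratios carry conditional intervals of the odds ratio (scipy 1.17.1). No test across genes was run. Scripts were tested on simulated data. Alternatives were library totals with and without *Rn45s*, DESeq2 1.42.0 size factors, quantile normalization, *Gapdh*, pseudocounts of 0.1 and 10, other thresholds and minimums, and added family genes. Gene models and coding bases came from GENCODE M21, and a comparison of whole proteins was not made. The summed Th17 marker list is not reported here.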

Additional observations from a re-analysis of the deposited data

How the results depend on the processing

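No paired analysis was possible because there was a single library on each side. For the same reason no library could be left out, and depth limits *Bik* and *Bmf* most. Of 71 member log2 ratios recomputed under other scalings, pseudocounts and copy sums, 59 stayed within their counting interval, 12 moved and 0 called values changed sign. Without *Rn45s* in the totals *Mcl1* was at 0.71, and 2 members and 3 of 59 genes of the pathway lists were called higher, where 16.0% of all rows were. With quantile normalization *Bcl2* was at 1.66, *Mcl1* at 0.71, and 2 members and 2 list genes were called higher (12.5% of all rows). With *Gapdh* scaling, a common shift by construction, *Bcl2* was at 1.97, *Mcl1* at 1.04, *Bcl2l11* at 1.35, *Bad* at 0.76, *Bak1* at 0.65, *Bcl2l1* at -0.037, *Bcl2a1d* at -0.090 and *Bid* at -0.41, *Bik* (0.21) and *Bmf* (0.03) turned sign, and 3 members and 5 list genes were called higher (24.3% of all rows). A 1.5-fold threshold called 3 members higher and 1, *Bid*, lower, and 5 list genes higher and 12 lower, against 23.5% of all rows higher and 22.9% lower. A 3-fold threshold called 0 members higher (8.32% of all rows) and 3 list genes lower (5.52% of all rows), and with no expression minimum 10 of 64 list genes with reads were called lower (15.5% of all rows with reads). A log2 minimum of 4 in both libraries, or of 6 in at least 1, left 1 member higher and 5 list genes lower, against 7.19% and 7.58% of all rows higher and 10.4% and 11.0% lower. *Bcl2a1d* was at -0.75 with the 4 copies summed. Adding those copies to the family put the pro-survival share at 85.0% in the control and 85.6% in the RV-Cre library, the BH3-only share at 11.3% and 11.0%, and the *Bcl2* share at 9.95% and 22.7%. Adding 7 further family genes put them at 78.1% and 81.1%, 15.5% and 13.3%, and 10.9% and 23.0%. Beyond what the construction of each alternative gives, the cause was not tested. The difference in pro-survival share beyond counting error was lost with the copies added. Counts per pathway list were equal or within 1.5 times in 127 of 144 cases and moved in 17. With the main setting most of these counts were 0 and the largest was 3, so the unmoved cases say little about stability.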

Other observations

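Of 8 genes that feed cytokine and NF-κB signals into BCL-2 family transcription, all 8 passed the expression minimum, 0 were called in either direction, against 14.2% of all rows called higher and 12.3% called lower, and the median log2 ratio was -0.06. *Il2rg*, the shared chain of the receptors for IL-2 and IL-7, had the most reads, 6163 in the control and 5439 in the RV-Cre library (log2 ratio -0.01). Chosen after their values were seen, *Stat5a* (2844 and 2417 reads, -0.06) and *Stat5b* (2200 and 1864 reads, -0.06), the transcription factors downstream of that chain, lay close to 0. *Il7r*, the IL-7 receptor of naïve and memory cells, had 151 and 215 reads (0.68). *Nfkb1*, which encodes an NF-κB subunit, had 2240 and 1087 reads (-0.87), while *Rela*, which encodes its partner, had 1437 and 1486 (0.22). No relation between these values and those of the BCL-2 family members was tested.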
